A study of Mus musculus with 12 samples.

Results

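Control mouse blastocysts were compared at 10 h and at 4 h after E3.5, the early blastocyst stage, to describe the mRNA changes of normal maturation in culture. The comparison takes 4 of the 12 libraries of the series, namely the 2 control libraries of each time point, and the genes with at least 1 RPKM (reads per kilobase of transcript and per 1000000 reads) in at least 2 of the 4. This left 10825 of the 34245 genes in the deposited table. Every library was made from a pool of 30 embryos. The embryos came from superovulated F1 hybrid (C57Bl6 x CBA/W) females mated to F1 males, were flushed at the 2-cell stage, and grew in KSOM medium with amino acids. At E3.5 the control embryos were moved into the same medium with DMSO, the solvent, and were collected 4, 7, or 10 h later. The other 6 libraries come from embryos cultured over the same hours with SB220025 at 20 µM, which blocks the p38 mitogen-activated kinases (p38-MAPKi). The labels call the 2 libraries of a group replicates and do not say whether the pools were collected on separate days, so the p-values measure the spread between these pools.

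The blastocyst holds an outer epithelium, the trophectoderm (TE), and an inner cell mass (ICM) that sorts into epiblast (EPI) and primitive endoderm (PrE) over the day that follows E3.5. The TE is joined by tight junctions and desmosomes and pumps fluid into the cavity, while in the ICM NANOG and GATA6 are first present together and then mark EPI and PrE, respectively, with SOX17 and GATA4 following in the PrE. In mouse embryos a set of genes that includes Zscan4, Tcstv, and Usp17l is transcribed in a burst at the 2-cell stage, when the embryonic genome is first switched on, and is then silenced.

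Depth in the 4 libraries lay between 17097676 and 23287563 reads. Control replicate 1 at 4 h stood apart in Gm42418, a transcript that overlaps ribosomal RNA sequence. It took 4.64% of the reads there, against 0.690% in replicate 2 at 4 h, 0.477% and 0.367% in the replicates at 10 h, and at most 1.35% in any other library of the series. Each library was therefore centred on its median over the genes tested, which moved replicate 1 at 4 h by 0.16 on the log2 scale and the other 3 libraries by -0.02 to -0.07. All levels below are such centred RPKM values. Each level is a share of its library, since no RNA was spiked in, and in whole embryos fewer cells of a type and less RNA per cell cannot be told apart. Blastocyst markers were high, with Cdx2 of the TE at 194 to 218 and Pou5f1 of the ICM at 379 to 432 centred RPKM in the 4 libraries. Of the markers of other cells that a flushed embryo could carry, 7 of 9 blood genes, 4 of 8 sperm genes, and 5 of 10 cumulus and granulosa cell genes had 0 reads in all 4 libraries, and no gene of these 3 lists exceeded 13 reads in any of the 4. Of 7 genes of the oviduct and uterus, 2 had 0 reads in all 4 libraries, Ovgp1, an oviduct glycoprotein gene, had 30 to 44 reads, and Wfdc2, a gene of several epithelia, had 997 and 950 reads at 4 h and 1403 and 2026 at 10 h (log2 fold change 0.40, not called). The part of oviduct cells in the results was not tested. The 13 protein-coding genes of the mitochondrial genome are listed at 0 in every library.

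From 4 h to 10 h, 37 of the 10825 genes (0.342%) changed in limma at a Benjamini-Hochberg adjusted p under 0.05. Of these, 25 (0.231%) were higher and 12 (0.111%) lower at 10 h. The 25 genes that rose fall into 2 kinds. A total of 17, among them Zscan4d, Tcstv1, Tcstv3, Usp17lb, and BC147527, were near 0 reads until 7 h and had 17 to 408 reads in each library at 10 h. The other 8 had more reads at 4 h and 7 h and include the TE genes Tspan8 and Dppa1. Among the 12 genes that fell were Cited1, a transcriptional co-regulator, and Gpd1l and Pemt, enzymes of glycerol 3-phosphate and phospholipid metabolism. The plot of level against change shows how small most differences were, with a median absolute log2 fold change of 0.13 and 163 genes that moved by at least 1 on the log2 scale.

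**Figure D1:**
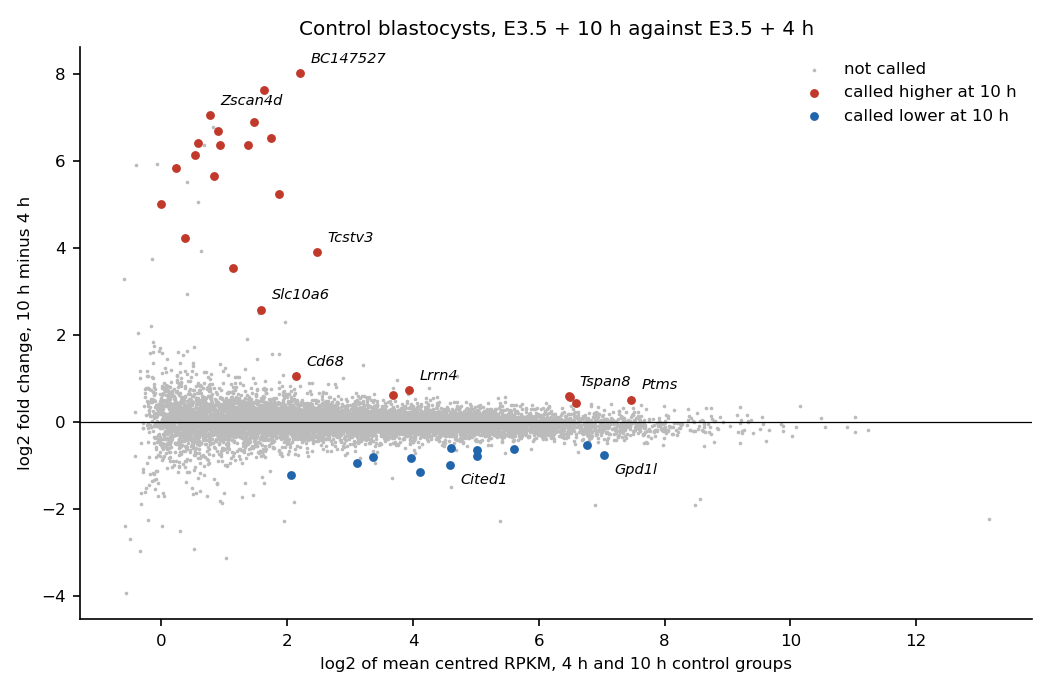
Log2 fold change at 10 h minus 4 h in control blastocysts (vertical axis) against the log2 of the mean centred RPKM of both groups (horizontal axis), with 1 point for each of the 10825 genes tested. Red points are the 25 genes called higher and blue points the 12 called lower (limma, adjusted p under 0.05). The red points above 3 are the genes near 0 reads at 4 h, and the remaining called genes lie between -1.22 and 2.59.

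The number of calls differed with the libraries that shared the estimate of the spread. The median SD between replicates was 0.09 at 4 h and 0.08 at 10 h on the log2 scale, but 0.15 in the control libraries at 7 h and 0.08 to 0.20 in the p38-MAPKi groups. When the 2 control libraries at 7 h shared the estimate of the spread, 4 genes were called, and when all 12 libraries shared it, 0 were (503 at an unadjusted p under 0.05). Within the 4 libraries 1827 genes (16.9%) had an unadjusted p under 0.05, with 795 (7.34%) higher and 1032 (9.53%) lower at 10 h. Both libraries of one time point lay above both of the other for 2550 genes (23.6%) that were higher and 2702 genes (25.0%) that were lower at 10 h.

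Several of the genes near 0 reads until 7 h belong to multigene families of the 2-cell stage. Some of their copies are so alike that a read can fit more than one of them, and the stretches printed here are shown for this reason. The stretches are coding sequence from GENCODE M21 (GRCm38), read 5′ to 3′ on the strand of the gene, and capitals mark the positions at which the copies printed together differ. The first 3 are bases 646 to 765, counted from the start codon, of Zscan4c (chromosome 7, 11005745 to 11010547, plus strand), Zscan4d (chromosome 7, 11161374 to 11166159, minus strand), and Zscan4f (chromosome 7, 11397915 to 11402318, plus strand), which hold 9 such positions in 120 bases, the most of any stretch of this length.
Zscan4c: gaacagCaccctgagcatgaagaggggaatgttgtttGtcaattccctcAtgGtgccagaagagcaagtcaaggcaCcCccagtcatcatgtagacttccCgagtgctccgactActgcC
Zscan4d: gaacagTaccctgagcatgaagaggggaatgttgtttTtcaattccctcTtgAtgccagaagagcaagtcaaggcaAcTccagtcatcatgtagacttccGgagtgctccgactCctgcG
Zscan4f: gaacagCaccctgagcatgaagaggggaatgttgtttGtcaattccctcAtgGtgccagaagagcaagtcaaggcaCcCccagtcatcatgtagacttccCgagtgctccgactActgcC
The next 2 are bases 31 to 150 of Tcstv1 (chromosome 13, 119893388 to 119894785, minus strand) and Tcstv3 (chromosome 13, 120316878 to 120318178, plus strand), with 5 differing positions.
Tcstv1: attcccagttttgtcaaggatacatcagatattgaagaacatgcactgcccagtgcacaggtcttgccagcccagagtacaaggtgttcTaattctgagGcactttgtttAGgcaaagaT
Tcstv3: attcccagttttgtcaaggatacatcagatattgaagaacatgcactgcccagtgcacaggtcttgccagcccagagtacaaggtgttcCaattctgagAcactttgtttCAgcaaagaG
Over their 1518 coding bases, Zscan4c and Zscan4f were identical at 99.6% of positions and Zscan4c and Zscan4d at 97.7%. Of all windows of 50 bases (the length of the reads) in the coding sequence of Zscan4c, 83.4% were also present in Zscan4f and 42.1% in Zscan4d, and 16.8% of those of Tcstv1 were present in Tcstv3. How reads that fit several places were counted is not given in the sources used here, so the split of reads between such copies is uncertain.

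The ZSCAN4 proteins are zinc finger proteins of the 2-cell embryo that also appear in a minority of embryonic stem cells. Zscan4d had 0 reads in the control libraries at 4 h and 7 h and in all p38-MAPKi libraries at 4 h and 10 h, and it had 215 and 114 reads in replicates 1 and 2 of the control at 10 h. In p38-MAPKi at 7 h it had 0 and 59 reads. Its level at 10 h was 4.74 and 2.05 centred RPKM, at least 43.2-fold above 3 reads per library at 4 h (adjusted p = 0.0337). It entered the test only through the 10 h libraries, so that it had to differ in order to be tested. Zscan4c had 70 and 29 reads and Zscan4f 30 and 21 reads at 10 h, and both had 0 reads at 4 h and 7 h in the control. These copies stayed under 1 RPKM in at least 3 of the 4 libraries and were not tested. For Zscan4d the control libraries at 10 h thus do not overlap those at any earlier time, which the filter had already set for 4 h.

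Tcstv1 and Tcstv3 (2-cell-stage variable group members) lie in a cluster on chromosome 13. Tcstv1 had 0 and 0 reads at 4 h, 1 and 0 reads at 7 h, and 164 and 57 reads at 10 h, and was at least 29.5-fold higher at 10 h (adjusted p = 0.0374). Tcstv3, with a few reads throughout, went from 0.671 and 0.554 centred RPKM at 4 h and 0.178 and 0.319 at 7 h to 15.8 and 5.31 at 10 h, a log2 fold change of 3.91 ± 0.45 (SE, adjusted p = 0.0337). BC147527, in the same cluster, had 0 reads in all 4 control libraries at 4 h and 7 h and 390 and 239 reads at 10 h, at least 82.0-fold higher (adjusted p = 0.00596). In all 3 genes replicate 1 at 10 h exceeded replicate 2. These genes entered the test only through the 10 h libraries, so that they had to differ in order to be tested.

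Of the 17 genes, 12 lay in 3 intervals of the genome, and Zscan4d, Usp17lb, Gm4312, Gm5580, and Gm8994 lay elsewhere. Of the 25 genes called higher, 7 lay within 425 kb on chromosome 13 (119893388 to 120318178), namely Tcstv1, Gm21761, B020031M17Rik, Gm21731, AF067061, BC147527, and Tcstv3. The interval holds 13 genes of the file, of which these 7 entered the test, and they did so only through the 10 h libraries. Another 3 (Gm21936, Gm5662, and Gm5039) lay within 529 kb on chromosome 12 (87795512 to 88324026), where 4 genes were tested, and B020004J07Rik and Gm12800 lay 76.9 kb from end to end on chromosome 4, where 3 genes were tested. The 17 genes had a median exon length of 1404 bases, and all genes tested one of 3947 bases.

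The sum over the 17 genes in RPM (reads per 1000000 reads of the library) was 1.35 and 1.37 at 4 h, 1.61 and 1.80 at 7 h, and 164 and 74.9 at 10 h in the control replicates 1 and 2. The 17 genes were chosen as called higher with few reads before 10 h, so that their common course was set by this choice. Some of them, such as Tcstv1 and Tcstv3, can share reads and are not separate observations. In 16 of the 17 genes replicate 1 at 10 h was above replicate 2, and the ratio had a median of 2.31 and a range of 0.965 to 3.52. The gene that differed was Gm5580, with 3.97 and 4.12 centred RPKM at 10 h after 0.384 and 0.317 at 4 h. Gm8994, with close replicates of 7.42 and 6.90 at 10 h after 0.208 and 0.171 at 4 h, had the smallest adjusted p of all genes (0.00233, log2 fold change 5.25 ± 0.28). Because these genes passed the 1 RPKM filter only through the 10 h libraries, they had to differ in order to be tested, and without either 10 h library 0 of the 17 remained in the test. Their fitted log2 fold changes ran from 3.54 to 8.02, and those of the 12 genes with 0 reads in both 4 h libraries depend on the value of 0.9 of a read that the file gives for 0 reads. Against 3 reads per library, these 12 genes were at least 6.01-fold to at least 82.0-fold higher at 10 h.

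**Figure D2:**
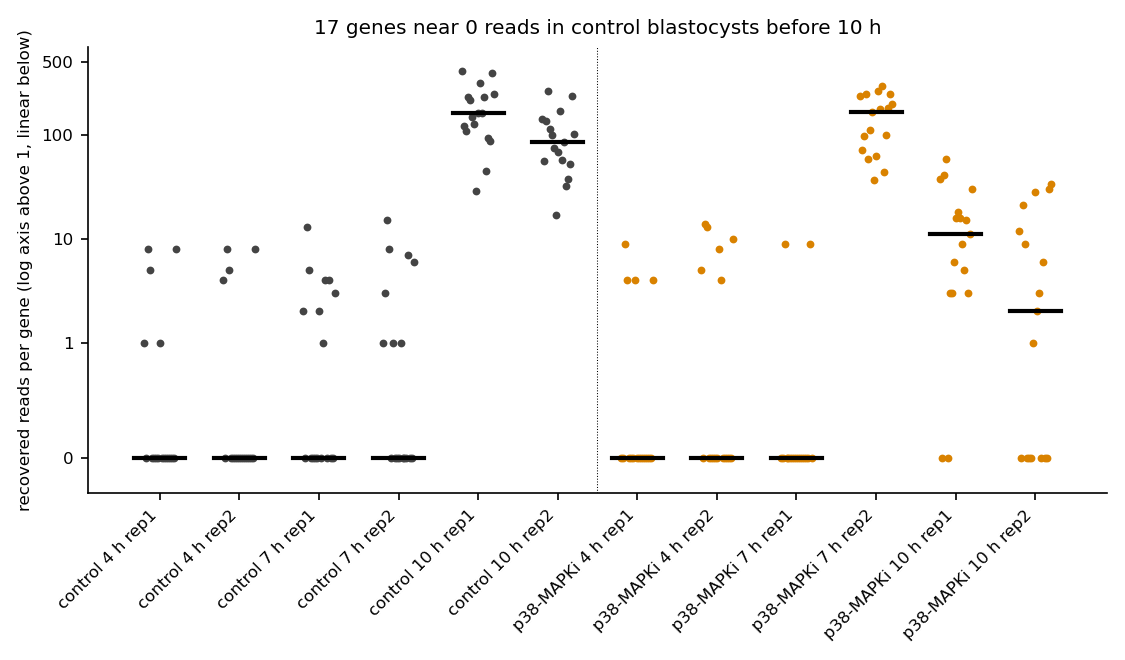
Recovered reads per gene (vertical axis, logarithmic above 1 and linear below) of the 17 genes in each of the 12 libraries, with control in grey and p38-MAPKi in orange. Points are genes and bars are medians. The medians are 162 and 86 reads in the control at 10 h and 0 in the 4 earlier control libraries, and of the p38-MAPKi libraries replicate 2 at 7 h has a median of 166 reads.

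The list of 2-cell stage genes has 14 genes in the file, of which 6 were tested and 4 rose (Zscan4d, Tcstv1, Tcstv3, and Gm5662), beside 0.231% of all genes. All tested members but Eif1a entered the test only through the 10 h libraries, so that the filter largely set this count. Usp17lc, a deubiquitinase gene, had 2 and 0 reads at 4 h and 239 and 87 reads at 10 h and missed the threshold (adjusted p = 0.0558). Eif1a, a translation initiation factor gene that is used well beyond the 2-cell stage, had a log2 fold change of 0.01. Among the 8 untested members, Zfp352 had 0 reads at 4 h and 163 and 38 reads at 10 h, and Duxf3 of the Dux family, which switches on 2-cell genes, had 22 and 0 reads at 10 h. The tested markers of the oocyte already had reads at 4 h, so that a rise from near 0 could not show in them. All 22 oocyte and maternal genes were in the file, 6 were tested, and 0 were called, with a median log2 fold change of -0.33. Of the untested genes of this list, Obox5, of a homeobox family, had 0 reads in the control at 4 h and 7 h and 7 and 1 reads at 10 h. In p38-MAPKi at 7 h Obox5 had 0 and 27 reads. Zp3, a zona pellucida gene, was at 1.78 and 1.83 centred RPKM at 4 h and 1.21 and 1.02 at 10 h. The summed level of the list, most of it from Khdc3 and Dppa3, was 1845 and 1804 centred RPKM at 4 h and 1651 and 1531 at 10 h. Whether embryos of another stage in a pool had a part in the rise of the 17 genes was not tested.

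Of the remaining 8 genes that rose, all but Slc10a6 were above 1 RPKM at every time point. Tspan8, a tetraspanin of epithelial cells, was at 72.0 and 70.1 centred RPKM at 4 h and 102 and 114 at 10 h (log2 fold change 0.60 ± 0.07, adjusted p = 0.0373). Dppa1 was at 72.1 and 73.5 at 4 h and 104 and 112 at 10 h (0.57 ± 0.07, adjusted p = 0.0337). For both genes the 4 h replicates lay within a few percent of each other and below both 10 h replicates, while the 7 h replicates lay on either side of the 4 h level, at 91.7 and 46.4 for Tspan8 and 86.0 and 51.9 for Dppa1. The next gene to Dppa1 on chromosome 11, BC053393, rose from 81.8 and 82.1 to 113 and 110 centred RPKM and had the same split at 7 h, with 118 and 63.3.

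Lrrn4, which encodes a leucine-rich repeat membrane protein, rose from 11.5 ± 0.082 to 19.1 ± 1.87 centred RPKM (SD, n = 2, adjusted p = 0.0374) and was already at 18.8 and 16.6 at 7 h. Slc27a3, of the fatty acid transport protein family, was highest at 7 h, with 10.1 and 10.2 centred RPKM at 4 h, 18.8 and 15.6 at 7 h, and 15.3 and 15.9 at 10 h (adjusted p = 0.0429). Ptms, the gene of the small acidic nuclear protein parathymosin, was the most abundant of the 25 and went from 146 ± 1.91 to 208 ± 4.59 (adjusted p = 0.0337). Slc10a6, a sodium-dependent carrier of sulfated steroids, went from 0.707 and 0.939 at 4 h to 6.87 and 3.49 at 10 h (adjusted p = 0.0374), and its 7 h values of 0.371 and 0.936 did not exceed those at 4 h. It was under 1 RPKM in both 4 h libraries and entered the test only through the 10 h libraries, so that it had to differ in order to be tested. In p38-MAPKi at 7 h it had 32 and 265 reads in replicates 1 and 2.

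Cd68, the gene of a lysosomal membrane glycoprotein that is best known from macrophages, was at 2.96 and 2.79 centred RPKM at 4 h, 4.49 and 4.28 at 7 h, and 5.94 and 5.99 at 10 h. The replicates of each time point were close and the 3 time points did not overlap (10 h against 4 h: log2 fold change 1.05 ± 0.13, adjusted p = 0.0337). Ptprc, Tyrobp, and Lyz2, genes of blood and myeloid cells, were in the blood list, whose 9 genes together had 16 and 2 reads at 4 h and 2 and 6 reads at 10 h. The 30 tested genes of lysosomes and endocytosis had a median log2 fold change of -0.02, and 0 of them were called.

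Cited1 had the largest fall among the called genes above 30 RPKM at 4 h and the smallest adjusted p of the 12 (0.00971). It went from 33.2 and 31.0 centred RPKM at 4 h over 24.0 and 26.5 at 7 h to 16.6 and 16.0 at 10 h, so that no value of one time point lay within another (log2 fold change -0.98 ± 0.08). CITED1 binds the CBP and p300 co-activators and modulates transcription. Stmn3, of the stathmin family of microtubule-destabilizing proteins, fell from 21.0 and 19.2 over 16.5 and 17.7 to 11.2 and 11.4 (adjusted p = 0.0275). Fkbp11, a peptidyl-prolyl isomerase of the secretory pathway, fell from 10.5 and 12.2 over 9.88 and 8.73 to 6.17 and 5.60 (adjusted p = 0.0337).

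Gpd1l, Pemt, Bhmt2, Dnph1, and Prelid2 fell as well. Gpd1l, related to glycerol 3-phosphate dehydrogenase, was at 157 and 174 centred RPKM at 4 h and 91.5 and 104 at 10 h (log2 fold change -0.76 ± 0.09, adjusted p = 0.0337). Pemt, which methylates phosphatidylethanolamine to phosphatidylcholine, was at 133 and 123 at 4 h and 87.0 and 90.2 at 10 h (adjusted p = 0.0374). Bhmt2, a methyltransferase of methionine synthesis, was at 12.7 and 13.4 at 4 h, 10.6 and 10.5 at 7 h, and 7.05 and 7.95 at 10 h (adjusted p = 0.0374). Dnph1, a nucleotide hydrolase, was level until 7 h, with 29.2 and 29.1 at 4 h and 28.7 and 27.8 at 7 h, and was at 19.3 and 19.5 at 10 h (adjusted p = 0.0337). Prelid2, of a family of mitochondrial lipid carriers, was at 57.3 and 60.0 at 4 h, 44.3 and 51.5 at 7 h, and 39.7 and 37.1 at 10 h (adjusted p = 0.0337). In each of these 5 genes both 10 h libraries lay below both 4 h libraries, whereas for Gpd1l and Pemt the 7 h replicates overlapped the 4 h group.

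The falls of Mcrip2, Smim22, D7Ertd128e, and AC170597.1 were between -0.64 and -1.22 on the log2 scale. D7Ertd128e, a long noncoding RNA, went from 5.07 and 6.62 to 2.43 and 2.56 centred RPKM (adjusted p = 0.0448). Over all called genes, the mean at 7 h lay between those at 4 h and 10 h for 11 of the 12 genes that fell and for 9 of the 25 that rose, beside 43.3% of all genes tested. The count for the rises does not describe a time course. Where a gene had 0 reads in the control at 4 h and 7 h, the order of these means rests on depth and on the value written for 0 reads. Zscan4d and BC147527 are such genes, and both counted as not between with a 7 h minus 4 h value of -0.44.

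**Figure D3:**
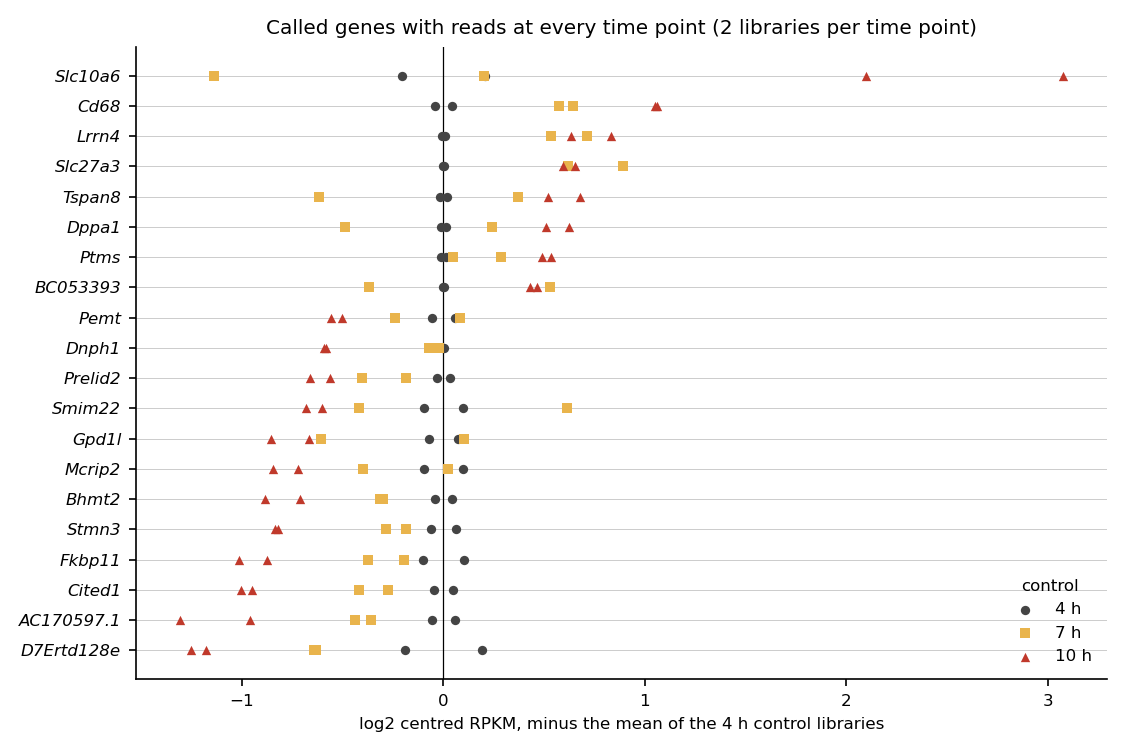
Log2 centred RPKM in the 6 control libraries, relative to the mean of the 4 h control libraries (horizontal axis), for the 8 called genes that rose without being near 0 reads before and the 12 that fell (rows). Circles are 4 h, squares 7 h, and triangles 10 h, with 1 symbol for each library. The triangles of all 20 genes lie on one side of the circles, and the 7 h squares of Tspan8, Dppa1, BC053393, Smim22, Gpd1l, and Pemt fall on both sides of the circles.

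The direction of the 12 falls was kept in the values as deposited, but only 3 of the 12 were called there, while all 25 rises were. Among all genes the centred values had a median log2 fold change of 0.00, and the deposited values one of 0.14, so 51 genes were called on the deposited scale, 47 higher and 4 lower. Transcript length was a further feature that moved with the change. Genes with an exon length of 1000 bases or less had a median log2 fold change of -0.14 and those over 8000 bases one of 0.03. The genes called lower had a median exon length of 1017 bases, but those called higher were also short, with a median of 1573 bases. Over all genes tested the median was 3947 bases. After the trend on length was removed from each library, 10 of the 12 falls and 24 of the 25 rises were called. The part of transcript length in the falls was otherwise not tested.

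Of the 12 lineage markers plotted here, 0 were called. Nanog, the EPI regulator, was at 147 and 139 centred RPKM at 4 h, 115 and 119 at 7 h, and 106 and 102 at 10 h, a log2 fold change of -0.46 ± 0.07 that missed the threshold (adjusted p = 0.0524). The levels at 4 h were above those at 7 h and these above those at 10 h without overlap. Pou5f1 and Sox2, which are shared by the ICM and the EPI, had log2 fold changes of -0.11 ± 0.07 and -0.17 ± 0.08, and Fgf4, the ligand that EPI cells send to PrE precursors, one of -0.10 ± 0.12. None of the 22 tested EPI and pluripotency genes was called, and their median log2 fold change was -0.07 in centred values and 0.07 in values as deposited, below the median of all genes on either scale.

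Among PrE genes, Gata6 was level, with 96.8 and 103 centred RPKM at 4 h, 99.0 and 125 at 7 h, and 101 and 102 at 10 h. The later factors were low. Gata4 was at 1.29 and 1.82 at 4 h, 1.85 and 1.67 at 7 h, and 3.68 and 2.23 at 10 h, and Sox17 was at 1.71 and 2.16, at 3.64 and 1.87, and at 4.18 and 2.64. Both 10 h libraries were above both 4 h libraries for these genes, yet the 10 h replicates differed widely, and the log2 fold changes of 0.90 ± 0.29 for Gata4 and 0.79 ± 0.26 for Sox17 had adjusted p-values of 0.200 and 0.196. Pdgfra, a receptor of PrE cells, overlapped between 4 h and 10 h. Of the 20 tested genes in the PrE list, 0 rose and 1, Cited1, fell, beside 0.231% and 0.111% of all genes called. Without an adjustment 4 were higher and 2 lower at p under 0.05, beside 7.34% and 9.53% of all genes. The median log2 fold change of the list was 0.06, with a range of -1.42 to 0.90.

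In the TE list 2 of 28 tested genes rose (Tspan8 and Dppa1) and 0 fell, with a median log2 fold change of 0.15, beside 0.231% and 0.111% of all genes called. Without an adjustment 11 of the 28 were higher and 2 lower at p under 0.05, beside 7.34% and 9.53% of all genes. The median was 0.21 and 0.12 without control 4 h replicates 1 and 2, and 0.23 and 0.10 without control 10 h replicates 1 and 2. At 7 h minus 4 h the median of the list was 0.01. Its summed level was 3179 and 3161 centred RPKM at 4 h, 3934 and 2680 at 7 h, and 3655 and 4090 at 10 h. The 7 h replicates thus lay on either side of the 4 h level, and no steady course over the 3 time points is shown. The keratins of this epithelium were the most abundant of its markers. Krt8 was at 533 and 501 centred RPKM at 4 h and 617 and 708 at 10 h, and Krt18 was at 1015 and 974 at 4 h and 1227 and 1333 at 10 h. Their log2 fold changes of 0.36 ± 0.09 and 0.36 ± 0.08 had adjusted p-values of 0.118 and 0.0955. Of the transcription factors of the lineage, Cdx2, Gata3, and Eomes moved less, by -0.14 ± 0.06, 0.09 ± 0.06, and 0.20 ± 0.17. This does not hold for every factor of the list. Gata2 had 503 and 873 reads at 4 h and 999 and 1753 reads at 10 h, before any scaling for depth, and was not called.

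**Figure D4:**
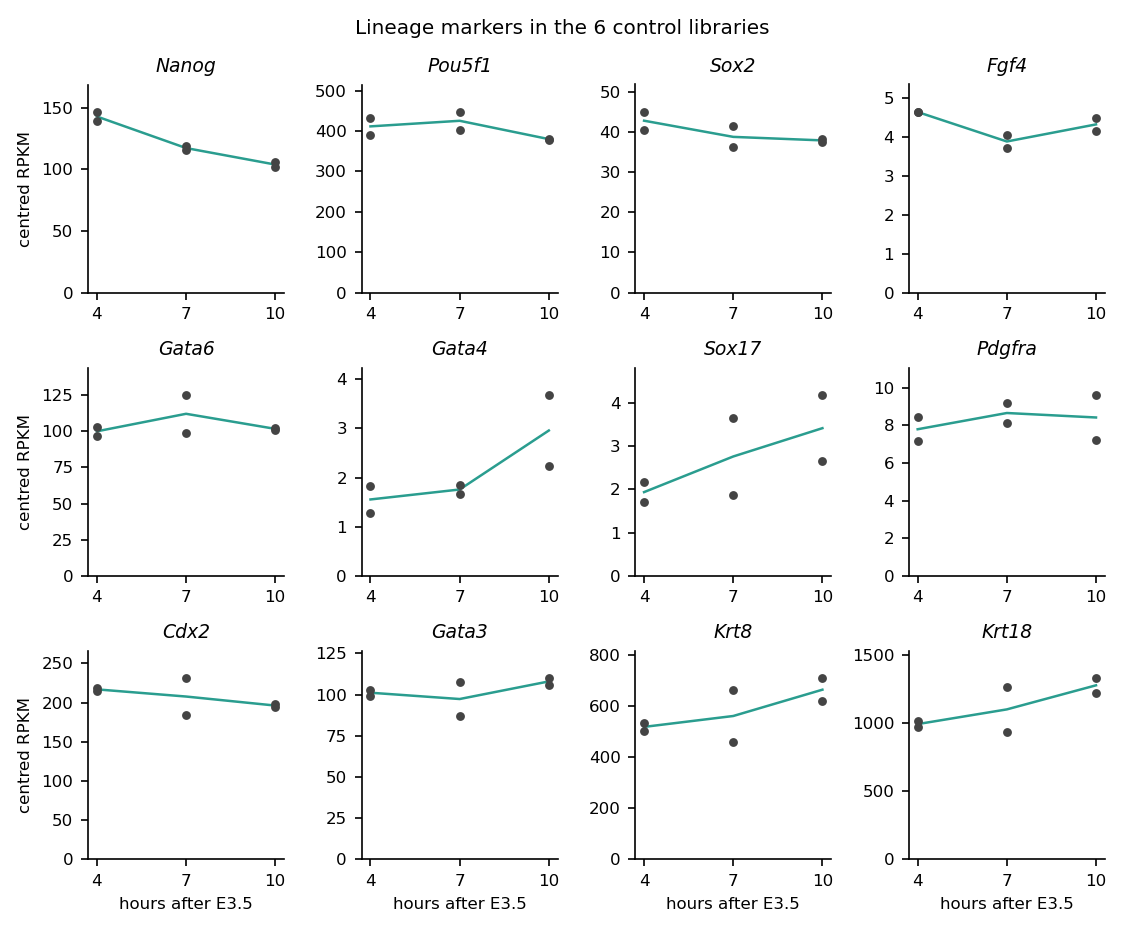
Centred RPKM (vertical axes, from 0) of 12 lineage markers in the 6 control libraries at 4, 7, and 10 h after E3.5 (horizontal axes), with the EPI and ICM genes in the top row, the PrE genes in the middle row, and the TE genes in the bottom row. Points are libraries and lines join the means. Nanog declines from 147 and 139 to 106 and 102, Gata6 stays near 100, and the 2 points of Gata4 and Sox17 at 10 h lie far apart.

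Genes of apical polarity and the cytoskeleton had the highest median of the structural lists. Over 26 tested genes it was 0.27, and 14 were higher and 0 lower at an unadjusted p under 0.05, beside 7.34% and 9.53% of all genes, although 0 passed the adjusted threshold. The median was 0.17 without control 4 h replicate 2. Msn, for moesin, which links actin to the membrane, was at 33.2 and 37.4 centred RPKM at 4 h and 50.0 and 55.3 at 10 h (adjusted p = 0.0593). Myh9, the heavy chain of nonmuscle myosin, was at 95.9 and 98.5 at 4 h and 128 and 133 at 10 h (adjusted p = 0.0558). Neither gene overlapped between the time points. The largest value in this list was that of Vim, an intermediate filament gene, with 0.689 and 0.716 at 4 h and 3.30 and 0.984 at 10 h, where 1 replicate stood apart (adjusted p = 0.273). For the 25 tested genes of tight and adherens junctions the median was 0.15, with 16 of the 25 wholly higher at 10 h and 0 wholly lower, beside 23.6% and 25.0% of all genes. The desmosomal cadherin Dsc2 (7.77 and 8.07 at 4 h, 12.3 and 10.99 at 10 h) and the tricellular junction gene Marveld2 (5.14 and 5.02 at 4 h, 8.21 and 6.91 at 10 h) had the largest values, with adjusted p-values of 0.0880 and 0.101.

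Fluid transport and the basement membrane gave no call. Of 11 tested ion pump and aquaporin genes the median was 0.07. Atp12a, a proton pump subunit, was at 8.64 and 7.23 at 4 h and 11.6 and 11.8 at 10 h (adjusted p = 0.0883), and the water channel gene Aqp3 was at 97.9 and 118 at 4 h and 76.9 and 83.6 at 10 h (adjusted p = 0.113). For 24 tested basement membrane genes the median was 0.09, and Lama1, a laminin chain, had a log2 fold change of 0.55 ± 0.20. Itgb4, an integrin subunit of hemidesmosomes, was at 2.73 and 3.06 at 4 h and 3.86 and 4.03 at 10 h (adjusted p = 0.204).

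Enzymes of cholesterol synthesis had the highest median of the metabolic lists, at 0.31 over 23 tested genes, with 10 higher and 0 lower at an unadjusted p under 0.05, beside 7.34% and 9.53% of all genes, and 0 called. The replicates at 10 h differed in this list, whose summed level was 892 and 895 centred RPKM at 4 h and 916 and 1204 at 10 h. The median was 0.10 without control 10 h replicate 2 and 0.52 without control 10 h replicate 1. Idi1, an isomerase of the pathway, was at 2.14 and 2.01 at 4 h and 3.05 and 3.61 at 10 h (adjusted p = 0.138). From 4 h to 10 h in p38-MAPKi the median of the same list was -0.11. For glycolysis and glucose uptake the median over 20 genes was 0.14, and Txnip, which limits glucose uptake, was at 6.44 and 12.3 at 4 h and 19.8 and 15.4 at 10 h, with replicates at 4 h that were far apart (adjusted p = 0.165).

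Known p53 targets had a median of 0.25 over 21 tested genes, and 11 of them were higher and 0 lower at an unadjusted p under 0.05, beside 7.34% and 9.53% of all genes, with 0 called. Btg2, an anti-proliferative gene, was at 13.4 and 14.7 centred RPKM at 4 h, 20.8 and 21.2 at 7 h, and 27.5 and 21.0 at 10 h (adjusted p = 0.0859). Plk2, a kinase of the stress response, was at 6.47 and 6.69, at 11.1 and 11.7, and at 11.7 and 9.43 (adjusted p = 0.0883). The 7 h replicates of both genes lay above their 4 h replicates. Immediate early genes, which include Btg2 as well, had a median of 0.21 over 10 genes. In the p38 MAPK cascade itself the median over 22 genes was 0.15 with 0 called, and the kinase genes Mapk13 and Mapk14 differed little. Mapk13 was at 12.4 and 11.6 at 4 h and 11.7 and 11.8 at 10 h, and Mapk14 was at 26.3 and 24.4 at 4 h and 25.5 and 25.5 at 10 h.

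Genes of the ribosome and of respiration lay below the median of all genes. Of the 81 cytosolic ribosomal protein genes 77 had a negative log2 fold change, 41 were lower and 0 higher at an unadjusted p under 0.05, and 59 were wholly lower at 10 h, with a median of -0.19 and 0 called. Of all genes 9.53% were lower at that p and 25.0% wholly lower. The summed level of these genes was 22803 and 20621 centred RPKM at 4 h, 22588.7 and 17292.5 at 7 h, and 19252 and 18649.6 at 10 h. At 7 h replicate 1 thus lay within the 4 h range and replicate 2 below both 10 h values. Rpl41 was at 306 and 283 centred RPKM at 4 h, 265 and 217 at 7 h, and 225 and 189 at 10 h, and Rpl36a was at 170 and 146, at 142 and 105, and at 116 and 111 (adjusted p = 0.0883 and 0.0880). The median was -0.14 for the 76 genes of the mitochondrial ribosome and -0.12 for the 37 genes of complex I (-0.03 without control 4 h replicate 1), but in the values as deposited, where all genes had a median of 0.14, these became 0.00 and 0.02, and that of the cytosolic ribosome became -0.06. The same holds for ribosome biogenesis (-0.11 over 34 genes, 0.03 as deposited) and DNA replication licensing (-0.10 over 28 genes, 0.03 as deposited). Npm1, a nucleolar chaperone, was at 534 and 487 at 4 h, 444 and 425 at 7 h, and 388 and 352 at 10 h (adjusted p = 0.0880).

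**Figure D5:**
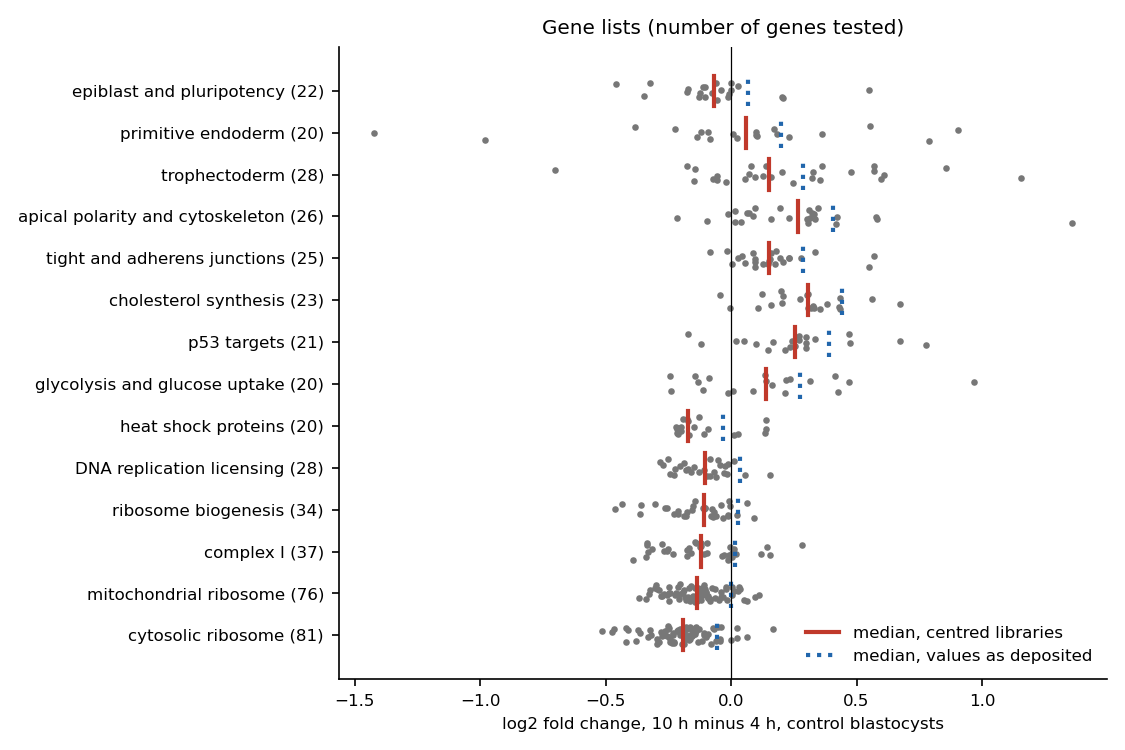
Log2 fold change at 10 h minus 4 h in control blastocysts (horizontal axis) of the tested genes in 14 lists (rows, with the number of genes in brackets). Grey points are genes, red bars the medians in centred values, and dotted blue bars the medians in the values as deposited. The red medians run from -0.19 for the cytosolic ribosome to 0.31 for cholesterol synthesis, and each blue bar lies to the right of its red bar by about 0.14.

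The lists of stress and signaling gave no call. The 20 tested heat shock genes had a median of -0.17 in centred values and -0.03 as deposited. Of these, 7 were lower and 0 higher at an unadjusted p under 0.05, beside 9.53% and 7.34% of all genes. At 10 h 13 were wholly lower and 3 wholly higher, beside 25.0% and 23.6% of all genes. Phgdh, the first enzyme of serine synthesis and a target of the integrated stress response, was at 50.4 and 59.6 centred RPKM at 4 h and 31.1 and 35.8 at 10 h, and was not called (adjusted p = 0.0554). For FGF and ERK signaling, Hippo and YAP, BMP and Id genes, amino acid transport, the ER unfolded protein response, and antioxidant genes, 0 members were called, and the medians lay between -0.04 and 0.06. Replication-dependent histones had a median of -0.72 over 14 genes, and of -0.08 without control 4 h replicate 1, with wide scatter, from -3.12 to 0.05. Their transcripts lack the poly(A) tail by which the mRNA was selected. Xist, the RNA that coats the inactive X chromosome, was at 45.5 and 37.9 at 4 h and 30.8 and 33.5 at 10 h (adjusted p = 0.147). The transcripts tied to ribosomal RNA moved with replicate 1 at 4 h. Gm26917 was at 836 and 350 at 4 h and 155 and 165 at 10 h, and Lars2 at 332 and 64.5 at 4 h and 49.8 and 30.3 at 10 h. Their part in the other results was not tested beyond the centring.

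Imprinted genes are expressed mainly from one parental copy. Peg10, a retrotransposon-derived gene needed in the placenta, was at 6.42 and 4.23 centred RPKM at 4 h, 7.41 and 6.77 at 7 h, and 10.2 and 16.3 at 10 h (log2 fold change 1.30 ± 0.26, adjusted p = 0.0883). H19, a noncoding RNA, was at 1.16 and 1.5 at 4 h and 1.46 and 10.6 at 10 h, so that its log2 fold change of 1.57 rests on replicate 2. The median over the 16 tested imprinted genes was -0.01. In the Hippo and YAP list Amotl2, an angiomotin of the junctional complex that YAP also regulates, was at 21.2 and 19.3 at 4 h and 25.9 and 29.4 at 10 h (adjusted p = 0.0927). Gm2a, a lysosomal lipid-binding protein gene, was at 234 and 211 at 4 h and 280 and 297 at 10 h (adjusted p = 0.0926). The 30 tested mitosis genes had a median of -0.02, and for Mki67, a marker of proliferating cells, the values were 18.8 and 16.9 at 4 h and 20.5 and 20.7 at 10 h.

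Whether the same hours brought other changes under p38-MAPKi was tested as an interaction in the 8 libraries at 4 h and 10 h. No gene passed, with 0 of 11288 called (0.00%) and a smallest adjusted p of 0.406, while 1169 genes had an unadjusted p under 0.05. Of the 37 genes called in the control, 34 had a p38-MAPKi change of the same sign. The share over all genes was not computed, so this count alone does not show a shared course. The exceptions among the 37 were Cd68 and, at 0 reads in the 4 p38-MAPKi libraries of 4 h and 10 h, Zscan4d and Gm12800. For Usp17lb, Gm4312, and AF067061 the sign rests on 3 and 0 reads at 10 h in p38-MAPKi, after 0 and 0 at 4 h. Cited1 was at 30.4 and 50.3 centred RPKM at 4 h and 12.2 and 12.9 at 10 h in p38-MAPKi, and Tspan8 was at 57.0 and 70.4 and then at 117 and 101. Cd68 went the other way, from 4.39 and 7.87 to 3.70 and 3.67 (difference of the changes 1.74 on the log2 scale, adjusted p = 0.406). The 17 genes near 0 summed to 0.863 and 2.50 RPM at 4 h and to 12.4 and 5.97 at 10 h in p38-MAPKi, below the 164 and 74.9 of the control at 10 h.

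The p38-MAPKi replicates at 4 h had the largest median SD, 0.20. When p38-MAPKi replicate 1 at 4 h was left out, so that the lone replicate 2 was assumed to vary like the other groups, 2005 genes were called in the interaction. The smallest unadjusted p belonged to Gabarapl1, an autophagy gene. It was at 21.7 and 25.0 centred RPKM at 4 h and 27.0 and 26.5 at 10 h in the control, and at 27.3 and 26.0 and then 14.98 and 14.95 in p38-MAPKi. Srxn1, an antioxidant enzyme, had the same course, with 35.9 and 34.9 and then 43.8 and 43.3 in the control and 42.2 and 37.8 and then 20.3 and 25.6 in p38-MAPKi. Xist and BC053393, also among the smallest p-values of the interaction, had differences of the other sign. These were -1.51 and -0.83 on the log2 scale (adjusted p = 0.406 for each).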

How the data were processed

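Libraries were made from poly(A)-selected RNA of pools of 30 blastocysts with a directional kit and read as 50-base single ends. The authors trimmed the reads (Trim Galore 0.4.1), mapped them to GRCm38 (HISAT2 2.0.5), and quantified genes in SeqMonk, and the deposited values are log2 RPKM for 34245 genes in each library, with 0 reads written as 0.9 of a read. Whether counting used the strand is not given in the sources used here. All 12 columns of values were mapped to samples, and 0 were unused.

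Whole reads were recovered from the log2 values with GENCODE M21 exon lengths or, where these failed, with a searched length, and served only to describe depth, to set fold bounds (3 reads per library, counting error only), and for limma voom. Depth was 17097676 to 23287563 reads in the 4 control libraries compared. Libraries were centred on their median over genes with at least 1 RPKM in 2 or more libraries and tested with limma 3.58.1 in R 4.3.3 (lmFit, eBayes with trend, two-sided) without a pseudocount. P-values were adjusted by the Benjamini-Hochberg method over all genes tested. The control course was fitted to its own 4 libraries and its difference from p38-MAPKi as an interaction in 8. The methods were tested on simulated data.

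Members, lists, and tests were chosen with earlier results of these data known. Genes are named by a rule, namely the 12 largest rises and falls called at 5 RPKM or more (predicted genes not ranked), the called members of each list or its 2 largest changes, and a set of lineage markers, p38 kinases, and ribosomal RNA related transcripts. The 17 genes near 0 (at most 15 reads in every control library at 4 h and 7 h), their predicted members, Zscan4c, Zscan4f, Zfp352, Duxf3, Usp17lb, Usp17lc, Obox5, Eif1a, Gata2, Msn, Myh9, AC170597.1, Gm12800, Ovgp1, Khdc3, Gabarapl1, and Srxn1 were named after their values were seen. One gene that the rule names is not reported here. Alternatives varied the scaling, filter, pseudocount, fit, threshold, and libraries. Whether replicate numbers pair the libraries is not given in the labels. The correlation of the replicate differences at 4 h and 10 h across genes was 0.07, which cannot decide it. Python 3.11.15 with pandas 2.3.3 and matplotlib 3.10.9 was used for the rest.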

Additional observations from a re-analysis of the deposited data

Results flagged for a closer look

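The 17 genes near 0 reads in the control libraries at 4 h and 7 h were also high in a library that the comparisons above do not use. In p38-MAPKi replicate 2 at 7 h they summed to 149 RPM (2592 reads), against 1.60 in p38-MAPKi replicate 1 and 1.61 and 1.80 in the control replicates at 7 h. Each of the 17 genes was above every control library of 4 h and 7 h in that library, with 37 to 296 reads per gene. The replicates of this group therefore stood far apart, and the difference between them was not tested, since only 1 library shows it.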

How the results depend on the processing

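With 2 libraries per group the number of called genes, 37, followed the estimate of the spread and the filter. It was 13 without the trend (9 of them among the 37), 4 with the 6 control libraries in one fit, 0 with 12 libraries in one fit, 155 at 10 RPKM or more, 297 with voom on recovered reads, 24 and 22 with pseudocounts of 1 and 5, and 4 and 259 at thresholds of 0.01 and 0.1. Without each library in turn it ran from 24 to 131. Without control 4 h replicate 1 it was 64 (32 shared with the 37), without control 4 h replicate 2 it was 131 (36 shared), and without control 10 h replicates 1 and 2 it was 24 and 38 (9 shared each). The replicate number as a block gave 230 calls that include all 37, and whether the replicate numbers pair the libraries is not known. It stayed within 1.5 times of 37 in the values as deposited (51), with quantile normalization (43), without the length trend (37), with a pseudocount of 0.1 (39), and without a filter, where 41 genes were called but 2 were shared and the median log2 fold change of the 10825 genes was 0.27. Over the named genes called and the alternatives, the call was kept 243 times and lost 144 times, and 0 values reversed. For the interaction the count of 0 became 56 without a filter and 4 without the trend, and it was 0 under the other scalings, pseudocounts, and thresholds, at 10 RPKM or more, in the fit of 12 libraries, and with the replicate block. Without each of the 8 libraries in turn it ran from 0 to 2005, and 2005 came only without p38-MAPKi 4 h replicate 1. Depth limits the genes near 0 at 4 h to lower bounds.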
